A study of Homo sapiens with 3 samples.

Results

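AGR2 and 4 further genes of the secretory pathway were followed through an HRD1 knockdown: the gel-forming mucin genes MUC5AC and MUC5B, the trefoil factor gene TFF3, and SPINK5, which encodes a secreted protease inhibitor. They are 5 of the 58243 genes tabulated for each library and were taken by gene name. The 5 were chosen by their measured ratios in these same libraries, as secretory genes that moved with AGR2 or against it. Their directions at day 3 and day 5 are therefore descriptions, and no test is attached to them. A mean of at least 50 reads over the 3 libraries, the minimum used for counts of genes, was reached by 12593 genes in all and by 4 of the 5, the exception being TFF3.

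AGR2 is a member of the protein disulfide isomerase family that resides in the endoplasmic reticulum (ER) of mucus-secreting cells. In mice that lack Agr2, intestinal goblet cells make little mature mucin. Gel-forming mucins are very large glycoproteins whose cysteine-rich C-terminal ends are joined in pairs by disulfide bonds in the ER, and whose long serine- and threonine-rich repeats receive O-linked glycans in the Golgi. Trefoil factors are small disulfide-bonded peptides secreted together with mucins. SPINK5 encodes LEKTI, best known in skin, where it inhibits kallikrein proteases. HRD1, encoded by SYVN1, is the ubiquitin ligase that marks misfolded ER proteins for degradation in the cytosol.

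The RNA came from human cells labelled as LoVo, a colon carcinoma line, and every library was made from cells with a Tet-On short hairpin RNA against HRD1. The hairpin was induced with 1 µg/ml doxycycline for 0, 3 or 5 days, with 1 library per time. By its title, the series concerns the response of the ER to misfolded proteins. No difference has a replicate check, square brackets give 95% exact intervals for counting error only, and ratios set single libraries, not conditions, against each other. The hairpin is present at every time, so an effect of doxycycline or of time in culture cannot be told apart from an effect of the knockdown. The labels do not say whether the line is a clone or a pool.

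The libraries held 21308785 to 25754188 reads assigned to genes. SYVN1 stood at 54.3% [49.3 to 59.7] of its day 0 level at day 3 and at 48.2% [43.8 to 52.9] at day 5. Most of the colorectal markers went against the colon label. Of 13 markers of colorectal epithelium, 3 (KRT8, KRT18 and KRT19) reached 1 TPM (the authors' level per length of transcript) in each library. These 3 keratins were abundant, at 465, 728 and 137 TPM at day 0. EPCAM, the epithelial adhesion molecule, stood at 0.724, 0.742 and 0.656 TPM at 0, 3 and 5 days, and the intestinal transcription factors CDX1 and CDX2 had 0 reads in each. Of 7 mesenchymal markers, 5 reached 1 TPM in each library, and CDH2 and COL1A2 did so in none. Goblet cell markers were also scarce: the 10 other than TFF3 had 43, 57 and 56 reads in all at 0, 3 and 5 days, with MUC2 at 0, 1 and 0 reads and CLCA1 at 0 in each. In bulk RNA, a change in the number of cells that express a gene cannot be told apart from a change in RNA per cell.

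The RefSeq promoter table (GRCh38) held the start regions of 2 of the 5 genes, AGR2 and SPINK5, which are the members with higher levels after induction. The 250 bases upstream of each start are shown because promoters of ER stress genes often carry short response elements that can be looked for by eye. AGR2 lies on the minus strand at chr7:16805000-16805249 and SPINK5 on the plus strand at chr5:148063730-148063979. Both RefSeq starts lie inside the wider gene spans that the files give. Each is written 5′ to 3′ along its gene, and capitals mark matches to the TATA box letters TATAAA on either strand, which overlap each other in SPINK5.

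AGR2: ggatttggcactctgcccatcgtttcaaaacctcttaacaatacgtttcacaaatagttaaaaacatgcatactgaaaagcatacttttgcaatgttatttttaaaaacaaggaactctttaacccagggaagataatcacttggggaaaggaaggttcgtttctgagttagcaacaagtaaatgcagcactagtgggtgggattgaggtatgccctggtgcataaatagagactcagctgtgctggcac

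SPINK5: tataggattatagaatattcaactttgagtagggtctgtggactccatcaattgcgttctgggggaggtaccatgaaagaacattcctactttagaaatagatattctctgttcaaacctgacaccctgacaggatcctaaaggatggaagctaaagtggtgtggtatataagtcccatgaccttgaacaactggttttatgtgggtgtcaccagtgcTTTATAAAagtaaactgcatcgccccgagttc

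Neither window of 300 bases, which adds 50 bases after the start, held the ER stress elements ERSE or ERSE-II, the unfolded protein response element TGACGTGG, or the amino acid response forms TGATGCAAT and TGATGAAAC, on either strand. Among all 35116 promoter windows of the same length, 0.0769% held ERSE, 0.0541% held ERSE-II, 0.729% held TGACGTGG, 0.236% held TGATGCAAT and 0.225% held TGATGAAAC. The hypoxia core ACGTG, which lies within the unfolded protein response element, was in neither window and in 21.4% of all. The forkhead form TGTTTAC, found in 3.42% of all windows, was in neither. A second forkhead form, spelt TGTTTGC and found in 3.89% of all windows, was absent from both as well. The TATA letters were present in 11.5% of all windows, in that of SPINK5 and not in that of AGR2. These letters say nothing of which factors bind there.

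AGR2 (ENSG00000106541, GRCh38 chromosome 7, positions 16791811 to 16833433, minus strand, 2845 bases of exon) had the highest TPM of the 5 in each library. It had 372, 782 and 935 reads at 0, 3 and 5 days, all uniquely placed, which are 17.2, 36.6 and 35.6 CPM, that is, reads relative to the TMM-scaled library total. Both doxycycline libraries stood above the day 0 library, and their counting intervals, 34.1 to 39.3 CPM at day 3 and 33.4 to 38.0 CPM at day 5, did not overlap that of day 0, 15.5 to 19.1 CPM. How many of all genes had intervals apart in this way was not counted, so nothing particular to AGR2 is read from it. The level was 2.12-fold higher at day 3 [1.88 to 2.41] and 2.07-fold higher at day 5 [1.83 to 2.34] than at day 0. Day 5 over day 3 gave a log2 ratio of -0.04 [-0.18 to 0.10], so no difference between the doxycycline libraries was detectable at this depth.

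Among the 12593 genes above the read minimum, 17 had a higher ratio than AGR2 at day 3 and 33 at day 5. Genes were called where the ratio passed a stated fold and its interval excluded 1. At 2-fold, 0.199% of genes were called higher at day 3 and 0.302% at day 5. AGR2 and SPINK5 were among them at both times, which their choice fixes. Both were close to that limit. SPINK5 was under 2-fold with 3 of the 8 alternatives at each time. Its log2 ratio was then 0.96 without TMM, 0.47 with the authors' TPM and 0.95 with a prior count of 5 at day 3, and 0.84 with the TPM, 0.93 with that prior count and 0.95 after removal of smooth trends with GC content and exon length at day 5. AGR2 was under it with 1 of the 8 at each time. At day 3 its log2 ratio was 1.09, or 0.98 with the authors' TPM, and at day 5 it was 1.05, or 0.92 after removal of those trends.

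The reads of AGR2 were those of a spliced transcript. Exon reads numbered 354, 765 and 903 at 0, 3 and 5 days, and 95.5%, 94.4% and 94.6% of them spanned an exon junction. Junction reads alone gave 2.16-fold at day 3 [1.90 to 2.47] and 2.08-fold at day 5 [1.83 to 2.37] over day 0. Intron reads were few, at 18, 17 and 32. Their log2 ratios over day 0 were -0.06 [-1.11 to 0.97] at day 3 and 0.54 [-0.33 to 1.47] at day 5, so a difference in intron reads was not detectable at this depth.

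The relatives of AGR2 were not like it in level. AGR3, its closest paralog and neighbour on chromosome 7, had 0 reads in each library, where 3 reads would correspond to 0.139, 0.140 and 0.114 CPM at 0, 3 and 5 days. TXNDC12 (ERp19), the third member of this small group of thioredoxin-fold ER proteins, stood at 60.4, 62.9 and 68.1 TPM, above AGR2 at 25.2, 50.3 and 52.4 TPM. The log2 ratio of TXNDC12 was 0.19 [0.08 to 0.31] at day 3 and 0.20 [0.09 to 0.31] at day 5 over day 0. TXNDC12 was not called at 1.5-fold.

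MUC5AC (ENSG00000215182, chromosome 11, positions 1157953 to 1201138, plus strand) encodes the main gel-forming mucin of the gastric surface and airway. It had 377, 269 and 310 reads at 0, 3 and 5 days, all uniquely placed, or 17.4, 12.6 and 11.8 CPM. The day 0 library was the highest, and its counting interval, 15.7 to 19.3 CPM, did not overlap that of day 3, 11.1 to 14.2 CPM, or that of day 5, 10.5 to 13.2 CPM. The level was 72.2% of day 0 at day 3 [61.5 to 84.6] and 67.7% at day 5 [58.1 to 78.9]. The log2 ratios were -0.47 and -0.56, and that of day 5 over day 3 was -0.09 [-0.33 to 0.15]. Of genes above the read minimum, 4.22% had a lower ratio over day 0 than MUC5AC at day 3 and 1.47% at day 5. The share of all genes whose intervals were likewise apart was not counted, so nothing particular to MUC5AC is read from it.

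MUC5B (ENSG00000117983, chromosome 11, positions 1223066 to 1262172, plus strand), the neighbouring gel-forming mucin of airway and salivary glands, had 166, 132 and 139 reads at 0, 3 and 5 days, or 7.68, 6.18 and 5.30 CPM. The order was again day 0, then day 3, then day 5, but the interval of day 0, 6.56 to 8.94 CPM, overlapped that of day 3, 5.17 to 7.33 CPM. From all reads, the log2 ratio over day 0 was -0.31 [-0.65 to 0.02] at day 3 and -0.54 [-0.87 to -0.20] at day 5. The day 3 interval included 0, so no difference in all reads was detectable. Exon reads, 161, 116 and 129 at 0, 3 and 5 days, gave -0.45 [-0.81 to -0.10] and -0.60 [-0.95 to -0.26]. Intron reads, 5, 16 and 10, gave 1.61 [0.18 to 3.50] and 0.67 [-0.96 to 2.62]. The uniquely placed share of MUC5B reads was only 69.3%, 77.3% and 71.2%, and those reads gave -0.16 at day 3 and -0.48 at day 5. The share of reads that other loci could claim makes the MUC5B values uncertain.

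**Figure D1:**
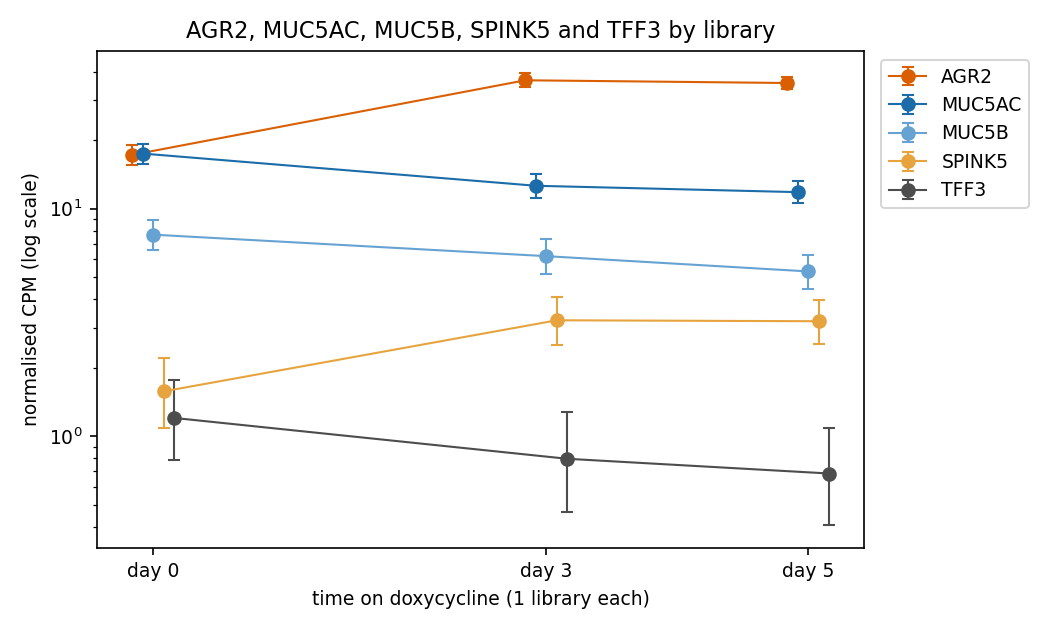
Normalised CPM (log axis) of the 5 genes against days of doxycycline, 1 library per time, with bars for 95% exact Poisson intervals. AGR2 stands at 36.6 and 35.6 CPM at day 3 and day 5 against 17.2 at day 0, while MUC5AC stands at 12.6 and 11.8 against 17.4.

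Neither mucin gene was called at 1.5-fold. At that size, 2.53% of genes were called lower at day 3 and 1.28% at day 5, while 1.29% and 1.76% were called higher. Of the 4 members above the read minimum, 2 were called higher and 0 lower at each time, and since the members were chosen on these contrasts nothing is read from that count. For day 5 over day 3, 0 of the 4 were called in either direction, against 2.29% of all genes higher and 0.961% lower. The median log2 ratio over all 12593 genes was 0.01 at day 3 and 0.01 at day 5 over day 0, so the scaling placed the bulk of genes at 0.

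The mucin ratios were nearer to 0 once a trend with transcript length and GC content, which ran through all genes, was removed. MUC5AC and MUC5B have 17448 and 18598 bases of exon, and 60.3% and 64.5% GC in their longest transcripts. At these values the fitted trend was -0.19 and -0.21 at day 3 over day 0, and -0.22 and -0.25 at day 5 over day 0. With the trends removed, MUC5AC had log2 ratios of -0.28 [-0.51 to -0.05] at day 3 and -0.35 [-0.57 to -0.13] at day 5. MUC5B then had -0.10 [-0.44 to 0.24] and -0.29 [-0.62 to 0.05], neither of which was detectable. A single exon makes up 59.4% of the MUC5AC exon bases (10371 bases) and 58.6% of those of MUC5B (10893 bases), and junction reads were 37.6% to 42.5% of MUC5AC exon reads. Junction reads alone gave MUC5AC log2 ratios of -0.30 [-0.68 to 0.07] at day 3 and -0.54 [-0.91 to -0.17] at day 5.

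The other secreted mucin genes had few or no reads. Of 6 listed, MUC5AC and MUC5B were the ones above the read minimum. MUC6, the mucin of gastric glands and a gene of the same cluster on chromosome 11, had 45, 43 and 51 reads at 0, 3 and 5 days, with log2 ratios of -0.05 [-0.69 to 0.59] and -0.10 [-0.71 to 0.51] at day 3 and day 5 over day 0. MUC2, the goblet cell mucin, whose gene lies between MUC6 and MUC5AC, had 0, 1 and 0 reads, and MUC7 and MUC19 had 0 in each. Of 13 membrane mucin genes, CD164, a sialomucin of endosomes and the cell surface, was the one above the minimum. It had 2229, 1676 and 2477 reads, and its log2 ratio over day 0 was -0.39 [-0.49 to -0.30] at day 3 and -0.13 [-0.21 to -0.05] at day 5.

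TFF3 (ENSG00000160180, chromosome 21, positions 42311667 to 42315651, minus strand) was read 26, 17 and 18 times at 0, 3 and 5 days, or 1.20, 0.796 and 0.686 CPM. The intervals of the 3 libraries overlapped. The log2 ratio over day 0 was -0.58 [-1.57 to 0.34] at day 3 and -0.79 [-1.76 to 0.11] at day 5, so no difference of TFF3 was detectable at this depth, and its label as a gene that moved against AGR2 rests on few reads. Its neighbours TFF1, the gastric trefoil factor, and TFF2 had 6, 2 and 2 reads and 0, 0 and 1 reads. Of the 3 trefoil genes, 0 reached the read minimum.

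SPINK5 (ENSG00000133710, chromosome 5, positions 148025683 to 148137289, plus strand) had 34, 69 and 84 reads at 0, 3 and 5 days, or 1.57, 3.23 and 3.20 CPM. The doxycycline libraries were higher, with intervals of 2.51 to 4.09 and 2.55 to 3.96 CPM against 1.09 to 2.20 CPM at day 0. Here too, the share of all genes with intervals apart was not counted. The ratio over day 0 was 2.04-fold at day 3 [1.34 to 3.19] and 2.02-fold at day 5 [1.35 to 3.12]. SPINK5 passed the read minimum through its day 3 and day 5 reads, having fewer than 50 at day 0.

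Most SPINK5 reads did not come from exons. Intron reads made up 91.2% [76.3 to 98.1] of its reads at day 0, 87.0% [76.7 to 93.9] at day 3 and 79.8% [69.6 to 87.7] at day 5, whereas intron reads made up 5.59% to 6.68% of each library. Over the 3 libraries together the SPINK5 share was 84.5%, and 0.898% of 11583 protein-coding genes above the read minimum had a higher one. Exon reads numbered 3, 9 and 17, all of them across a junction. They gave log2 ratios over day 0 of 1.46 [-0.40 to 4.12] at day 3 and 2.06 [0.43 to 4.63] at day 5. Intron reads numbered 31, 60 and 67, with ratios of 0.96 [0.32 to 1.64] and 0.82 [0.20 to 1.495]. The higher SPINK5 count at day 3 was thus mainly one of intron reads, and an exon difference at day 3 was not detectable. No annotated gene in the tables overlaps SPINK5 and had reads.

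**Figure D2:**
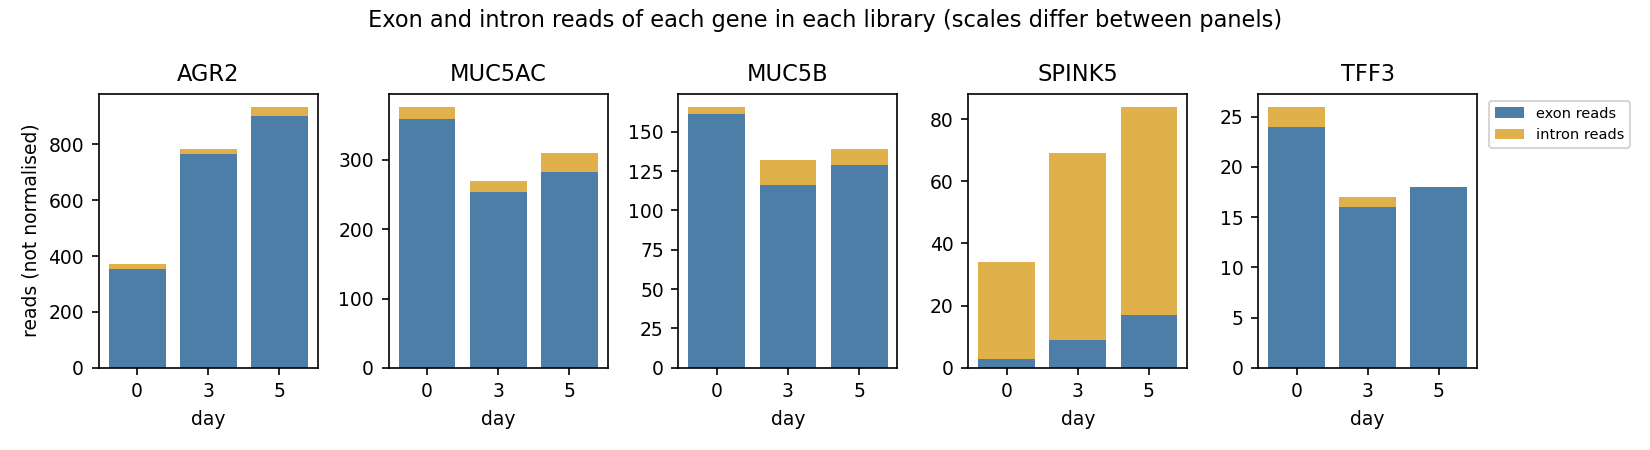
Exon and intron reads (not normalised, separate scales) of the 5 genes in the day 0, day 3 and day 5 libraries. Intron reads are a thin cap on AGR2, at 18, 17 and 32 reads, but most of SPINK5, at 31, 60 and 67 reads.

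The proteases that SPINK5 restrains in skin were almost unread. Of 16 genes in the list of kallikreins and the activating protease ST14 (matriptase), 0 reached the read minimum and 12 had no read in any library, KLK5 and KLK7 among them. ST14 had 27, 32 and 28 reads at 0, 3 and 5 days, and KLK14 had 3, 3 and 0. No further member of the 10 SPINK genes listed reached the minimum, and SPINK1, SPINK4 and SPINK7 had at most 3 reads in a library. Of 10 keratinocyte markers, which include SPINK5, KRT10 was the other one above the minimum, and KRT1, IVL, LOR and DSG1 had 0 reads in each library. KRT5, a basal keratin, had 11, 26 and 7 reads at 0, 3 and 5 days, with log2 ratios over day 0 of 1.22 [0.19 to 2.42] at day 3 and -0.88 [-2.54 to 0.57] at day 5. Its partner KRT14 had 0, 5 and 0 reads, and TP63, a factor of basal cells, had 12, 4 and 13. The 9 markers other than SPINK5 had 1124, 1207 and 1937 reads at 0, 3 and 5 days, nearly all of them KRT10 (1101, 1172 and 1916). Their part in the SPINK5 reads was not tested.

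Per length, the order of the 5 genes was the same in the 3 libraries, namely AGR2, MUC5AC, TFF3, MUC5B and SPINK5. At day 0 the TPM values were 25.2 [22.6 to 28.0], 4.17 [3.75 to 4.62], 4.16 [2.67 to 6.19], 1.75 [1.49 to 2.05] and 0.139 [0.0286 to 0.405]. At day 3 they were 50.3 [46.8 to 53.9], 2.72 [2.40 to 3.08], 2.56 [1.46 to 4.16], 1.17 [0.963 to 1.40] and 0.384 [0.176 to 0.729]. At day 5 they were 52.4 [49.1 to 55.9], 2.67 [2.37 to 3.00], 2.54 [1.51 to 4.02], 1.15 [0.956 to 1.36] and 0.641 [0.373 to 1.03]. MUC5AC and TFF3 did not differ beyond counting error in any library. AGR2 had a higher TPM than 50.8% of the genes above the read minimum at day 0, 70.9% at day 3 and 70.8% at day 5. MUC5AC ranked low, above 14.3%, 10.8% and 9.14% of them.

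Ratios between genes of one library need no scaling between libraries, but they keep the trend with length and GC content. The fitted trend over day 0 was 0.07 at day 3 and 0.12 at day 5 for AGR2. For MUC5AC it was -0.19 and -0.22, and it was not removed here. AGR2 had 0.987 reads per MUC5AC read at day 0 [0.853 to 1.14], 2.91 at day 3 [2.53 to 3.35] and 3.02 at day 5 [2.65 to 3.44]. Against MUC5AC and MUC5B together, the ratio of AGR2 in TPM was 4.26 at day 0, 12.9 at day 3 and 13.7 at day 5. Against SPINK5 the ratio in reads was 10.9 [7.69 to 16.0], 11.3 [8.85 to 14.7] and 11.1 [8.90 to 14.1]. In TPM, which counts exons, it was 182, 131 and 81.8, from 3, 9 and 17 SPINK5 exon reads. The ratio of AGR2 to MUC5AC in reads was thus higher in both doxycycline libraries, with intervals clear of that of day 0. That of AGR2 to SPINK5 in reads, mostly intron reads for SPINK5, had overlapping intervals. The members were chosen by this pattern.

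**Figure D3:**
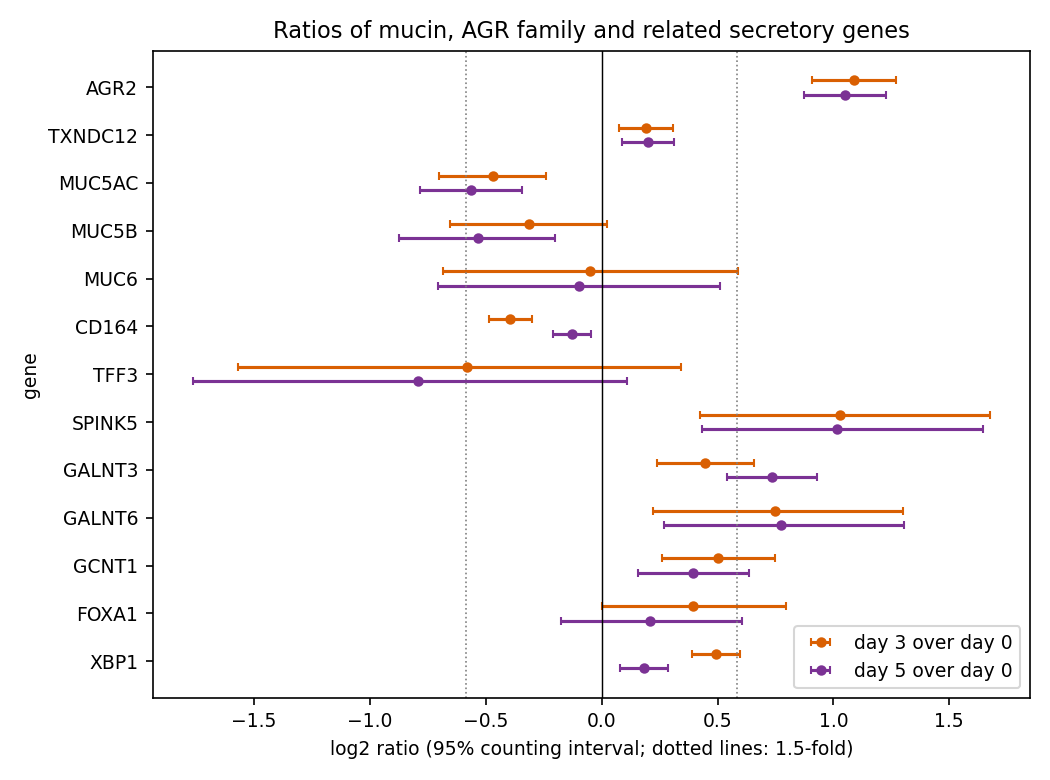
Log2 ratios over day 0 at day 3 and day 5 with 95% counting intervals for selected AGR family, mucin and related secretory genes. Dotted lines are at 1.5-fold. The GALNT, GCNT and transcription factor genes shown are a selection with ratios above 0 at both times. Of 12 GALNT genes above the read minimum, 5 had ratios above 0 at day 3 and 4 at day 5. Of 7 transcription factors above it, 3 did so at each time. Genes with ratios below 0 at both times, among them GALNT9, GALNT10, HES1 and CREB3L4, are not shown. AGR2 lies at 1.09 and 1.05, MUC5AC at -0.47 and -0.56, and the intervals of MUC6 and TFF3 cross 0.

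The genes whose pair of ratios over day 0 was most like that of AGR2 were sought among 7422 other protein-coding genes that averaged 200 reads or more, of which at least 90% were uniquely placed, by Euclidean distance over the 3 libraries. They were CTH (distance 0.42), an enzyme of cysteine synthesis, PDK1 (0.56), which inhibits pyruvate dehydrogenase, SESN2 (0.57), a stress-induced sestrin, the metallothionein MT1X (0.60), the mitophagy receptor BNIP3 (0.61) and TMEM71 (0.67). Their log2 ratios were all smaller than those of AGR2, 0.55 to 0.89 at day 3 and 0.57 to 0.78 at day 5. MUC5AC lay in a denser region, with RCSD1, THBS1, which encodes the matrix protein thrombospondin 1, OAZ2, an antizyme of polyamine synthesis, GMIP, SH3RF3 and DNAJC6 within 0.06 to 0.09 of it. For MUC5B the nearest were HIST1H2BC, the Notch ligand JAG1, PPP2R3B, SLC44A2, PLXNA1 and TEF, within 0.02 to 0.06.

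**Figure D4:**
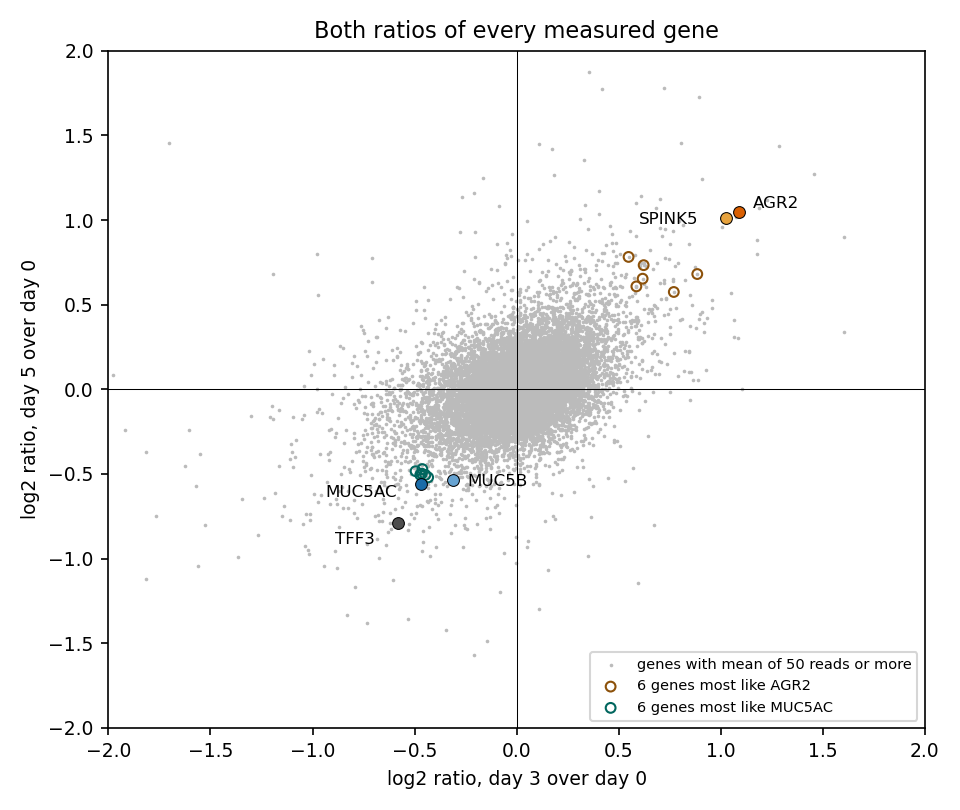
Log2 ratio at day 5 over day 0 against that at day 3 over day 0 for genes above the read minimum, and for TFF3, which is below it. The axes share the day 0 library, and 25 genes lie outside the axes. AGR2 and SPINK5 lie at the upper right, beyond the 6 genes most like AGR2, and MUC5AC, MUC5B and TFF3 at the lower left.

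Genes next to the members on the chromosome were read as well, within 200 kb and as a set chosen by position after the data were seen. TSPAN13, a tetraspanin 7275 bases from AGR2 on the other strand, had 125, 179 and 241 reads at 0, 3 and 5 days, with log2 ratios over day 0 of 0.53 [0.20 to 0.88] at day 3 and 0.66 [0.35 to 0.99] at day 5. BZW2 and ANKMY2, farther off, had 0.21 and 0.23 at day 3 and 0.03 and 0.06 at day 5. TOLLIP, a regulator of Toll-like receptor signalling 12199 bases from MUC5B, had 0.09 [0.00 to 0.17] at day 3 and -0.08 [-0.16 to 0.01] at day 5, against -0.31 and -0.54 for MUC5B. AP2A2 and BRSK2, farther from the mucin genes, had -0.07 and -0.08 at day 3 and -0.20 and 0.16 at day 5. ABCG1, 14423 bases from TFF3, had 64, 70 and 65 reads at 0, 3 and 5 days. Its log2 ratios over day 0 were 0.15 [-0.36 to 0.66] at day 3 and -0.26 [-0.78 to 0.26] at day 5. SLC37A1, a sugar phosphate transporter gene 180357 bases from TFF3, had -0.26 [-0.44 to -0.09] at day 3 and -0.34 [-0.51 to -0.17] at day 5. Among neighbours below the read minimum, AC073333.1, an antisense RNA gene 71913 bases from AGR2, had 11, 2 and 2 reads at 0, 3 and 5 days, with -2.20 [-5.66 to -0.25] and -2.44 [-5.96 to -0.54]. MARCOL, 84361 bases from SPINK5, had 3, 5 and 18 reads, with 0.67 [-1.61 to 3.44] and 2.14 [0.53 to 4.71].

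Enzymes that build mucin O-glycans were listed apart. GALNT enzymes add the first sugar to serine or threonine, and 12 of 18 were above the read minimum. At 1.5-fold, 1 was higher and 0 lower at day 3, and 3 were higher and 0 lower at day 5, while the median log2 ratios were -0.06 and -0.03. Over all genes, 1.29% were called higher and 2.53% lower at day 3, and 1.76% higher and 1.28% lower at day 5. The 3 were GALNT6, with 48, 80 and 100 reads at 0, 3 and 5 days and log2 ratios over day 0 of 0.75 [0.22 to 1.30] and 0.77 [0.27 to 1.31], GALNT3, with 329, 443 and 665 reads and ratios of 0.45 [0.24 to 0.66] and 0.73 [0.54 to 0.93], and GALNT4, with 0.16 and 0.59. GALNT6, the one called at day 3, passed the read minimum through its day 3 and day 5 reads, since its 48 reads at day 0 lie below it. None of the GALNT4 reads was uniquely placed, and its values are uncertain. Of the genes called at day 5, GALNT3 alone is free of both limits, so little is read from these counts. GALNT9 had -0.50 [-0.94 to -0.08] and -0.37 [-0.77 to 0.02]. The enzymes that extend the chain had 7 of 16 genes above the minimum and 0 called at either time, close to those shares of all genes, with medians of 0.04 and 0.14. Among them GCNT1, which starts the core 2 branch, had 0.50 [0.26 to 0.75] and 0.40 [0.16 to 0.64], and C1GALT1, the core 1 synthase, had -0.03 and 0.35 [0.19 to 0.50]. B3GNT3, which extends core 1, had 0.24 and -0.11, and the sialyltransferase ST6GALNAC4 had 0.04 and -0.25 [-0.44 to -0.07].

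Of 16 transcription factors of secretory cells, 7 were above the read minimum and 0 were called at 1.5-fold. With 1.29% of all genes called higher and 2.53% lower at day 3, and 1.76% and 1.28% at day 5, a count of 0 among 7 is close to the background. Their medians were -0.02 at day 3 and -0.14 at day 5 over day 0. XBP1, which drives ER expansion in secretory cells, had 0.49 [0.39 to 0.60] and 0.18 [0.08 to 0.29]. FOXA1, a forkhead factor of endoderm and its derivatives, had 0.40 [0.00 to 0.80] and 0.21 [-0.18 to 0.60], CREB3L4 had -0.02 and -0.47 [-0.96 to 0.01], and the Notch target HES1 had -0.20 and -0.41 [-0.61 to -0.20]. SPDEF and ATOH1, factors of goblet and secretory progenitor cells, had 28, 39 and 26 reads and 2, 0 and 1 reads at 0, 3 and 5 days. Of 16 goblet cell secretory genes, ZG16B and LYPD8 were above the minimum. ZG16B, a lectin, had 122, 161 and 147 reads and ratios of 0.42 [0.07 to 0.77] and -0.01, and LYPD8, a secreted protein of colon mucus, had -0.02 and -0.14. ERN2, the IRE1 paralog of mucosal epithelium, had 0, 1 and 0 reads. Of 8 ER stress sensors and effectors above the minimum, 2 (HSPA5 and DDIT3) were called higher at 1.5-fold at day 3 and 0 at day 5, against 1.29% and 1.76% of all genes, with medians of 0.23 and 0.17. Of these 8, 5 had ratios above 0 at day 3 and 7 at day 5. HSPA5 had log2 ratios over day 0 of 0.72 [0.70 to 0.74] at day 3 and 0.44 [0.42 to 0.46] at day 5. ATF4 had 0.38 and 0.25. DDIT3 had 0.68 and 0.40 but is uncertain, since 55.1% of its reads were uniquely placed. Its uniquely placed reads gave log2 ratios over day 0 of 0.44 at day 3, below 1.5-fold, and 0.10 at day 5.

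Markers of several cell types also differed between the libraries. Of the 3 colorectal markers above the read minimum, KRT19, an epithelial keratin, alone was called 1.5-fold higher at day 3. Over all genes, 1.29% were called higher at day 3. The log2 ratio of KRT19 over day 0 was 0.61 [0.53 to 0.70] at day 3 and 0.17 [0.08 to 0.26] at day 5. KRT8 had 0.18 and -0.15, and KRT18 had 0.15 and 0.01. The 13 hepatocyte markers other than SERPINA1, which was abundant throughout, had 10, 29 and 684 reads in all at 0, 3 and 5 days. The 12 enterocyte markers had 11, 12 and 134, and 8 blood markers 21, 53 and 158. Of the hepatocyte markers 9, 8 and 0 had no read, and of the enterocyte markers 9, 9 and 0. The 5 gastric surface markers other than MUC5AC had 51, 45 and 56 reads, with GKN1 at 0 in each. The part of these cell types in the AGR2 ratios was not tested.

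The plot of the alternatives gives every recomputed ratio of the 5 genes. No alternative moved a member to the other side of 0 at day 3 or day 5 over day 0.

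**Figure D5:**
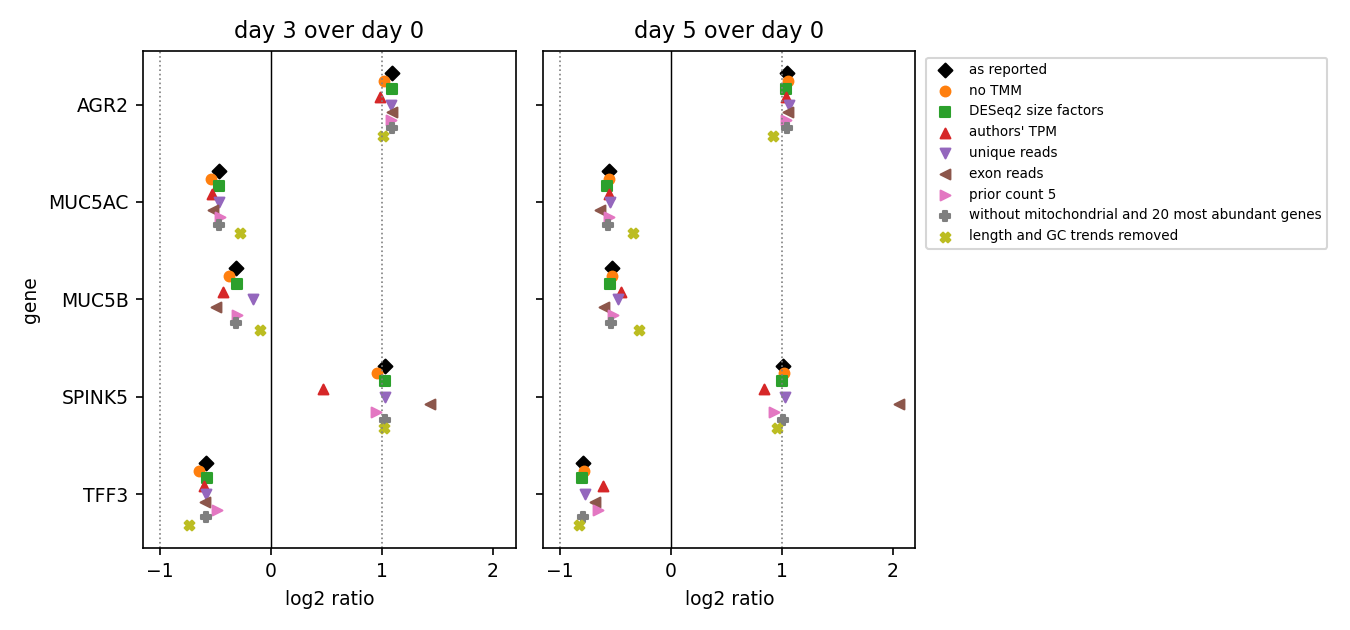
Log2 ratios of the 5 genes at day 3 and day 5 over day 0 as reported and under 8 alternatives of scaling, read class, prior count and trend removal, with dotted lines at 2-fold. AGR2 stays between 0.92 and 1.09, while SPINK5 spreads from 0.47 to 2.05.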

How the data were processed

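RNA was measured in 3 libraries, 1 per time. The labels' protocols name RNAiso Plus for extraction and a SMARTer mRNA kit for the libraries, and nothing says that counting used strand. Per the file headers, the deposited tables give read counts per gene (total, unique, exon, exon-exon and intron reads) and TPM values, which are the authors' own. Aligner, counter and their versions were not given in the sources used here, per the labels. The submitters' processing notes name mm10, a mouse build, but the gene identifiers are human, and of 57980 found in GENCODE 29, 97.6% have its start and end, so coordinates are given as GRCh38. The series-wide TPM table, with 3 sample columns, was left aside.

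Total gene reads (21308785, 22068686 and 25754188 at 0, 3 and 5 days) were scaled by TMM (factors 1.01, 0.968 and 1.02; edgeR 4.0.16 under R 4.3.3). Log2 ratios used a prior count of 0.5, with 95% exact conditional (Clopper-Pearson) intervals. Levels have exact Poisson intervals and shares exact binomial ones. Reads carry no molecular identifiers in the labels, so intervals and the limit of 3 reads cover counting error only. With 1 library per time there was no test and no p-value. Genes were called at 2-fold or 1.5-fold with an interval excluding 1, among genes averaging 50 reads or more. Trends on exon length and on GC content of the longest GENCODE transcript (present for 99.9% of these genes) were fitted by lowess with a span of 0.3 in 3 rounds. Motifs were searched as exact letters on both strands. Alternatives were library totals, size factors of DESeq2 1.42.0, exon reads, unique reads, a prior count of 5, TPM of the authors plus 0.5, scaling without mitochondrial and the 20 most abundant genes, removal of the trends, and minimum means of 10 or 200 reads or none. The ratios and their intervals were tested on simulated Poisson counts. These hold no variation beyond counting error, and scaling, trend removal and the motif search were not part of that test. Intervals came from scipy 1.17.1 and trends from statsmodels 0.14.6, with pandas 2.3.3 under Python 3.11.15, and figures from matplotlib 3.10.9.

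The members, gene lists, motifs and alternatives were chosen with earlier results of these data known. The text names the 5 members, all genes of the AGR, secreted mucin and trefoil lists, up to 4 genes with the largest ratios over day 0 from each other list, markers by level, and the 6 genes nearest to a member above the read minimum, except for SPINK5, which was chosen for its likeness to AGR2. The genes beside the members on the chromosome were added after the data were seen.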

Additional observations from a re-analysis of the deposited data

How the results depend on the processing

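Of 120 recomputed log2 ratios of the 5 genes, 118 stayed within the counting interval of the reported value and 0 reversed a direction whose interval excluded 0. The exceptions were SPINK5 from exon reads, at 2.05 for day 5 over day 0 and 0.62 for day 5 over day 3, where the 3 exon reads of day 0 limit the precision. MUC5B at day 5 over day 0 had an interval that excluded 0 under 7 of 8 alternatives, the exception being removal of the trends. At day 3 over day 0 its interval excluded 0 under 3 of the 8, namely library totals, exon reads and the authors' TPM. SPINK5 at day 3 had an interval that included 0 with exon reads and with the authors' TPM, which counts exons and gave 0.47. MUC5AC over day 0 kept an interval that excluded 0 under all 8 at both times, and AGR2 likewise. The intervals are computed without a prior count, so the alternative with a prior count of 5 could not change them in any of these counts.

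The numbers of genes called at 2-fold moved by over 1.5 times mostly with the read minimum. The calls were 25 higher and 57 lower at day 3 over day 0, 38 and 27 at day 5 over day 0, and 60 and 25 at day 5 over day 3. A minimum mean of 10 reads gave 174 and 308, 260 and 203, and 347 and 169 in that order. A minimum of 200 gave 6 and 6, 10 and 7, and 8 and 5, and no minimum gave 326 and 512, 481 and 415, and 608 and 340. Unique reads gave 6 higher and 26 lower at day 3 over day 0, 12 higher at day 5 over day 0 and 20 higher at day 5 over day 3. Exon reads gave 15 higher and 29 lower at day 3 over day 0, 17 lower at day 5 over day 0, and 35 higher and 15 lower at day 5 over day 3. The cause of the last 2 sets was not tested. No paired analysis was possible because each time has 1 library, and for the same reason no library could be left out.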

Other observations

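Proteins that meet secreted AGR2 outside the cell or bind it in it were also read. LYPD3 (C4.4A), a membrane-anchored receptor for extracellular AGR2, had 80, 91 and 120 reads at 0, 3 and 5 days, with log2 ratios over day 0 of 0.20 [-0.25 to 0.65] at day 3 and 0.30 [-0.12 to 0.73] at day 5. DAG1, which encodes dystroglycan, had -0.20 [-0.26 to -0.14] and -0.21 [-0.26 to -0.15]. EGFR, whose delivery to the cell surface has been tied to AGR2, had 9001, 6677 and 9466 reads, with -0.41 [-0.46 to -0.37] and -0.21 [-0.25 to -0.17]. RUVBL2, an ATPase that binds AGR2, had 0.20 [0.16 to 0.25] and -0.27 [-0.32 to -0.22]. None of the 4 was called at 1.5-fold at either time.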
